A study of Arabidopsis thaliana with 24 samples.

Results

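The calcineurin B-like proteins (CBL) are calcium sensors of plants, and the CBL-interacting protein kinases (CIPK) are the protein kinases they bind. The members were chosen by family membership: the loci of CIPK1 to CIPK26 and CBL1 to CBL10, 36 genes in all, taken whole and with no threshold on expression. The families were picked for description with earlier results of these libraries known, so the hypoxia changes below describe them and are not independent evidence about them. All 36 loci were among the 23929 genes in the files, and 32 of them (24 CIPK and 8 CBL genes) were among the 20110 genes with enough reads to be tested. CIPK18, CIPK22, CBL5 and CBL7 had too few reads.

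The libraries came from whole Arabidopsis thaliana seedlings of 4 genotypes: the wild type Col-0, shortened to Col, the single mutants vq1 and vq10, and vq1vq10, which carries both mutations. In the title of the series the mutants are named hypermorphic. VQ1 and VQ10 encode plant VQ-motif proteins. Seedlings of each genotype were grown for 14 days at 21% O2 on MS medium with 1% sucrose, in a cycle of 16 h light and 8 h dark. On day 15 they spent 4 h in dim light, either still at 21% O2 (normoxia) or at 1% O2 (hypoxia). For all groups the treatment began at zeitgeber time (ZT) 4 h. Light was given as 150 µmol during growth and 30 µmol when dim. Each of the 8 groups had 3 replicate libraries, 24 in all, of 21150032 to 22645177 estimated reads. The labels do not say whether replicates were separate batches of seedlings, so p-values measure the spread between these libraries, which may be technical. How the mutant alleles were made is not given in the sources used here.

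A CBL protein binds calcium through EF hands and then docks on the regulatory domain of a CIPK, which relieves the inhibition of the kinase and brings it to a membrane. The pairs set the activity of ion transporters: CBL4 (SOS3) with CIPK24 (SOS2) acts on the sodium antiporter SOS1, CBL1 and CBL9 with CIPK23 act on the potassium channel AKT1, and CBL2 and CBL3 recruit kinases to the vacuolar membrane. The kinases are related to the energy-sensing kinase SnRK1 and to the abscisic acid kinases SnRK2.

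The family divides by gene structure and by the start of the CBL proteins. In the TAIR10.1 annotation 9 CIPK genes (CIPK1, 3, 8, 9, 17, 21, 23, 24 and 26) had 10 to 15 coding exons and the other 17 had 1 to 2. The CBL genes had 7 to 9. In a CBL protein a glycine directly after the start methionine followed by a cysteine is a signal for attachment of myristate and palmitate, which anchor the sensor in a membrane. Of the 10 CBL genes, CBL1, CBL4, CBL5 and CBL9 carry codons for glycine and cysteine in those places. The first 30 coding bases are shown for 2 pairs of close relatives, one with and one without that signal, read 5′ to 3′ on the coding strand of TAIR10.1 with the codons after the start codon in capitals.
CBL1 coding start: atgGGCTGCttccactcaaaggcagcaaaa
CBL9 coding start: atgGGTTGTttccattccacggctgccaga
CBL2 coding start: atgTCGCAGtgcgttgacggtatcaagcat
CBL3 coding start: atgTCGCAGtgcatagacggtttcaagcat

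Coding sequences of CBL2 and CBL3 were identical at 84.4% of the bases of the longer one, and those of CBL1 and CBL9 at 71.4%. Among the kinases the nearest pairs included CIPK12 and CIPK19 (78.9%), CIPK2 and CIPK10 (77.0%), CIPK1 and CIPK17 (76.9%), CIPK4 and CIPK7 (75.5%), CIPK3 and CIPK26 (72.6%) and CIPK5 and CIPK25 (71.8%). Over the aligned bases alone, CBL2 and CBL3 were at 85.9% and CBL1 and CBL9 at 84.4%. The longest annotated coding sequence of CBL1 has 759 bases and that of CBL9 642, which lowers the share of the longer one. How reads shared by such relatives were assigned is not given in the sources used here, so the levels of these pairs carry that uncertainty. CIPK19 and CIPK20 lie tail to tail on chromosome 5 with 279 bases between them, CIPK14 and CIPK15 likewise with 1092 bases, and CBL3 and CBL7 follow each other on chromosome 4 with 295 bases between them. Whether counting used strand is not given, so reads from overlapping ends of such neighbours could not be told apart.

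The stretch of 250 bases before the annotated gene start was searched on both strands for CACGTG (the G-box), ACGTG (the core of abscisic acid response elements, which the G-box contains), AAACCA (a motif of anaerobic response elements) and AAAATATCT (the evening element). CACGTG stood in 4 of the 36 members and in 6.49% of 27443 windows of this length, ACGTG in 10 and 22.9%, AAACCA in 6 and 27.3%, and AAAATATCT in 1 (CIPK8) and 2.36%. Windows are shown for CIPK1 and CIPK17, close relatives with the 2 largest rises under hypoxia in Col, and for CIPK4 and CIPK7, close relatives that moved in opposite directions there. They are read 5′ to 3′ on the strand of the gene in TAIR10.1, with any of these motifs in capitals, in either orientation.
CIPK1 upstream window, chr3:5993002-5993251, minus strand: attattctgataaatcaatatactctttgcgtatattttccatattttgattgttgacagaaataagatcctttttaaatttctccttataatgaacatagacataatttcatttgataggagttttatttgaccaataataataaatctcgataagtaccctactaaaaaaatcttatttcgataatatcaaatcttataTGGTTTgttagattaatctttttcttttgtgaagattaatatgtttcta
CIPK17 upstream window, chr1:17817442-17817691, minus strand: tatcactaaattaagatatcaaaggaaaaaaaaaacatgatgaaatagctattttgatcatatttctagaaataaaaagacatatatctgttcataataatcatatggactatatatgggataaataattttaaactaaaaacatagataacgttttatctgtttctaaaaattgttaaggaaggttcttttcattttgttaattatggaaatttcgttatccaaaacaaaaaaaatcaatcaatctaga
CIPK4 upstream window, chr4:8369313-8369562, minus strand: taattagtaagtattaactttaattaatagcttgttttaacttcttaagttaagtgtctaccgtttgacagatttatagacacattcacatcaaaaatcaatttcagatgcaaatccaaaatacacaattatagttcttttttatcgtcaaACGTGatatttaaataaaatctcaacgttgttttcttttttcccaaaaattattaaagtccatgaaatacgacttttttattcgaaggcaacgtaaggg
CIPK7 upstream window, chr3:8172229-8172478, plus strand: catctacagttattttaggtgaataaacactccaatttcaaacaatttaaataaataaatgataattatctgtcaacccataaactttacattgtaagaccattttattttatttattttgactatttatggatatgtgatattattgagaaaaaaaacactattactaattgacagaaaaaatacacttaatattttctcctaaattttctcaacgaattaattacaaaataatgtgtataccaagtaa

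CIPK1 held 1 AAACCA, on the opposite strand, and CIPK4 1 ACGTG, while neither CIPK17 nor CIPK7 held any of the motifs. The windows of the relatives therefore did not share a motif of this search. A match is a run of letters, and a window without one says nothing about the factors that bind there.

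Levels were compared between genes in the deposited TPM, which scale transcripts to gene length and library. In normoxic Col the most abundant kinase transcript was CIPK6, a kinase that acts with CBL4 on the potassium channel AKT2, at 125 ± 4.53 TPM (mean ± SD, n = 3 here and below). CIPK1, a partner of CBL1 and CBL9, followed at 102 ± 11.8 TPM, then CIPK3 at 68.1 ± 4.83, CIPK7 at 61.7 ± 4.27 and CIPK12 at 56.0 ± 6.66. CIPK9, CIPK23 and CIPK20, at 42.4 ± 3.36, 41.5 ± 3.12 and 40.1 ± 5.44 TPM, lay within 1 SD of each other. At the other end CIPK19, CIPK18 and CIPK22 were at 0.350 ± 0.095, 0.253 ± 0.051 and 0.133 ± 0.029 TPM.

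Among the sensors CBL3 led in normoxic Col at 36.6 ± 4.72 TPM, followed by CBL10, which acts in salt tolerance of the shoot, at 26.8 ± 1.00. CBL2 and CBL9 were close together at 12.2 ± 1.22 and 12.1 ± 0.56 TPM. CBL4 (4.24 ± 0.86), CBL1 (3.46 ± 0.51) and CBL6 (2.18 ± 0.63) were lower, and CBL8 was at 0.687 ± 0.765 TPM. CBL5 had at most 2 reads in any of the 24 libraries and CBL7 at most 4, and CIPK18 and CIPK22 had at most 13 and 11. The whole sensor family summed to 92.4 to 109 TPM in the normoxic Col libraries, against 695 to 731 TPM for the kinases.

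**Figure D1:**
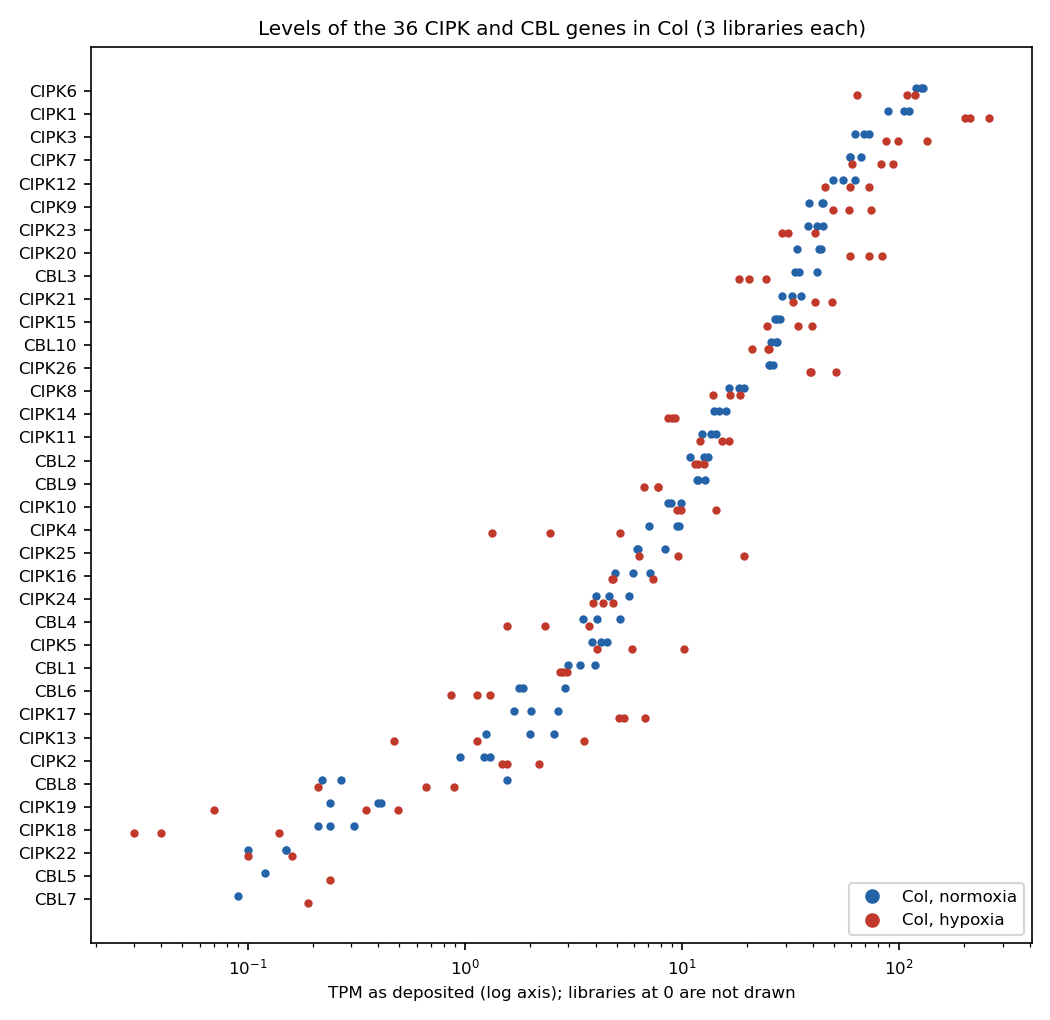
Deposited TPM (log axis) of the 36 genes in each of the 3 normoxic (blue) and 3 hypoxic (red) Col libraries, ordered by the normoxic mean; libraries at 0 are not drawn. CIPK1 stands at 88.9 to 112 TPM under normoxia and 201 to 260 under hypoxia, above every other member in the hypoxic libraries.

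Under hypoxia many kinase transcripts rose and no sensor transcript was called higher. In Col 15 members were called higher and 4 lower (edgeR, adjusted p under 0.05 over all 20110 genes), where 21.9% of all tested genes were called higher and 19.9% lower. All 15 higher members were kinases, and the 4 lower ones were CIPK4, CIPK14, CBL3 and CBL9. The median log2 change was 0.53 over the 24 tested CIPK genes and -0.29 over the 8 tested CBL genes, beside -0.01 over all genes tested. These counts are of members that passed the filter on low reads. In RNA from whole seedlings, fewer cells of a type and less RNA per cell cannot be told apart.

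The counts depended on the scaling. TMM factors were 1.03 to 1.11 for the normoxic and 0.876 to 1.02 for the hypoxic libraries. With library totals alone, an alternative chosen after seeing the data, the median of all tested genes in Col moved to -0.25 and that of the members to 0.00, so both moved down by a like amount. Counts in Col were then 10 higher and 7 lower: CIPK2, CIPK5, CIPK11, CIPK12 and CIPK15 were no longer called, and CIPK23, CBL4 and CBL6 were called lower. The shares of 21.9% and 19.9% of all tested genes are from the TMM fit and are no background for these counts. No called member changed direction.

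**Figure D2:**
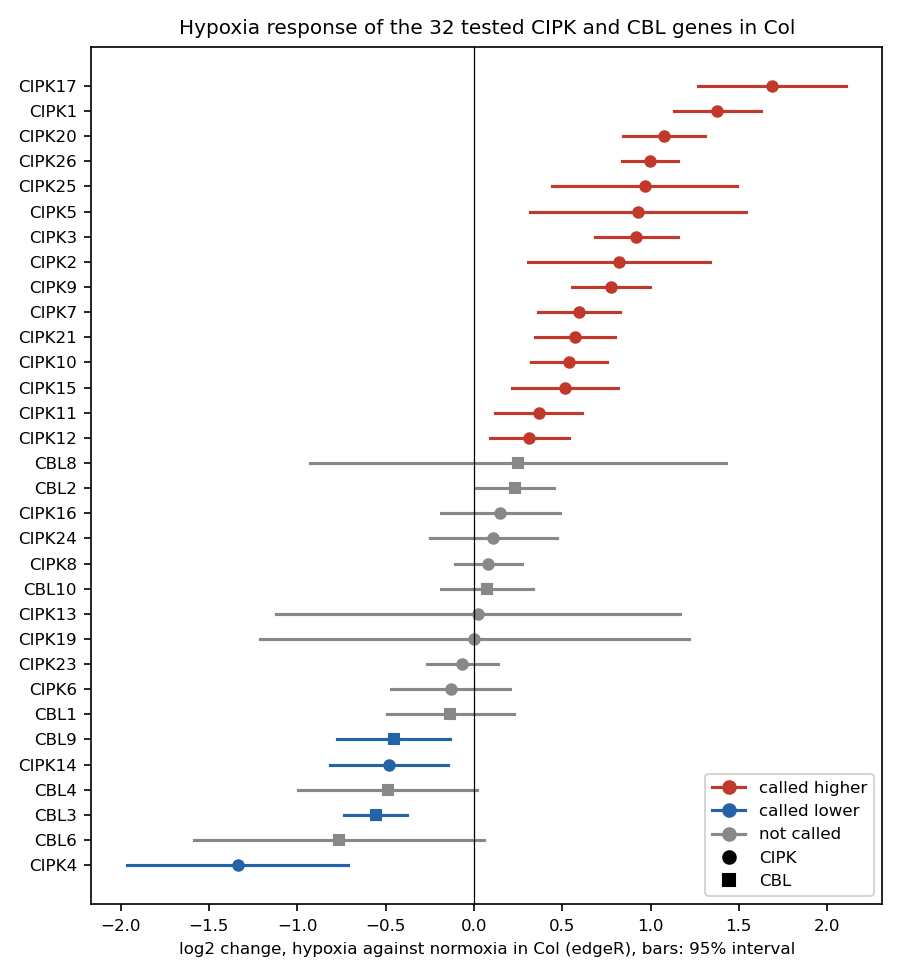
Log2 change between hypoxia and normoxia in Col for the 32 tested members (edgeR estimate with its 95% interval; circles CIPK, squares CBL; red called higher, blue called lower, grey not called). The 15 called higher are all circles, from CIPK12 at 0.31 to CIPK17 at 1.69, and CIPK4 at -1.34 lies lowest.

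The largest rise was that of CIPK17 (AT1G48260, TAIR10.1 chromosome 1, 17813886 to 17817441, minus strand). In CPM, read counts scaled to library sizes adjusted by TMM, it stood at 3.15, 1.93 and 2.43 in the normoxic and at 7.34, 8.22 and 8.60 in the hypoxic Col libraries. Every hypoxic library was above every normoxic one, at a low level throughout. The log2 change was 1.69 (SE 0.20, adjusted p = 7.46e-07).

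CIPK1 (AT3G17510, chromosome 3, 5988924 to 5993001, minus strand), the nearest relative of CIPK17, rose from a much higher level. It went from 152, 115 and 144 CPM to 346, 344 and 376 CPM. The groups were far apart, and the log2 change was 1.38 (SE 0.12, adjusted p = 4.73e-09). In TPM the share of CIPK1 in the summed CIPK transcripts of Col was 14.3% ± 1.40 under normoxia and 23.9% ± 0.96 under hypoxia, while that of CIPK6 was 17.5% ± 0.20 and 10.2% ± 2.66.

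CIPK20 (AT5G45820, chromosome 5, 18586870 to 18588792, minus strand) was at 53.3, 40.2 and 54.4 CPM under normoxia and at 109, 92.7 and 110 CPM under hypoxia. The groups did not overlap, with a log2 change of 1.08 (SE 0.11, adjusted p = 9.77e-08). CIPK26 (AT5G21326, chromosome 5, 7217244 to 7222021, plus strand), a kinase of the NADPH oxidase RBOHF, is shown because it had the smallest adjusted p of the members. It moved from 32.1, 29.7 and 30.9 CPM to 57.4, 60.8 and 66.6, a log2 change of 1.00 (SE 0.08, adjusted p = 7.57e-10).

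The remaining called rises in Col lay between log2 changes of 0.31 and 0.97. They were CIPK25 (0.97), CIPK5 (0.93), CIPK3 (0.92), CIPK2 (0.82), CIPK9 (0.77), a kinase of potassium nutrition, CIPK7 (0.59), CIPK21 (0.57), a vacuolar kinase of the osmotic stress response, CIPK10 (0.54), CIPK15 (0.52), CIPK11 (0.37) and CIPK12 (0.31). The Col libraries of CIPK25 overlapped, at 6.98, 6.78 and 9.48 CPM against 13.1, 8.98 and 23.2, and its adjusted p was 0.0801 without replicate 3 of hypoxic Col (0.000299 to 0.0801 over its 12 alternatives). CIPK5 went from 6.65, 5.90 and 5.66 CPM to 18.1, 7.51 and 9.15, and without replicate 1 of hypoxic Col its log2 change was 0.46 (adjusted p = 0.21, range 0.0046 to 0.21).

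CIPK9 was at 50.3, 47.5 and 44.8 CPM under normoxia and at 67.8, 85.1 and 91.1 under hypoxia. CIPK7, the relative of CIPK4, went from 63.3, 60.5 and 71.5 CPM to 107, 81.5 and 107, and CIPK15, a kinase that binds the abscisic acid phosphatases ABI1 and ABI2, from 40.8, 38.0 and 43.6 to 45.7, 65.3 and 64.0. In all 3 the hypoxic libraries lay above the normoxic ones. CIPK2 and CIPK10 were scarcer, at 1.24 to 1.80 and 11.1 to 13.4 CPM under normoxia and 2.46 to 3.19 and 15.4 to 20.5 under hypoxia. CIPK2 lost its call without replicate 3 of hypoxic or replicate 2 of normoxic Col (adjusted p 0.0518 and 0.07, range 0.00927 to 0.07).

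CIPK11, which restrains the plasma membrane proton pump AHA2, went from 16.2, 14.1 and 17.2 CPM to 22.0, 18.2 and 21.1, with the lowest hypoxic library close to the highest normoxic one (adjusted p = 0.016). CIPK12, which acts in vacuole and pollen tube growth, had 81.2, 69.7 and 92.9 CPM against 105, 84.8 and 113, and its groups overlapped (adjusted p = 0.0242). These were the smallest called rises. CIPK11 lost its call without replicate 1 or 3 of hypoxic Col or replicate 2 of normoxic Col (adjusted p 0.07, 0.0518 and 0.109, range over 12 alternatives 0.00929 to 0.374). CIPK12 lost it without replicate 1 or 3 of hypoxic Col or replicate 1 or 2 of normoxic Col (0.0738, 0.159, 0.0673 and 0.194, range 0.00373 to 0.584).

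CIPK4 (AT4G14580, chromosome 4, 8367663 to 8369312, minus strand) had the largest fall. Its normoxic Col libraries were at 7.49, 9.59 and 10.4 CPM and its hypoxic ones at 3.15, 1.78 and 5.83. The groups did not overlap although the hypoxic libraries were spread widely, and the log2 change was -1.34 (SE 0.30, adjusted p = 0.0011). CIPK14 fell by 0.48 on the log2 scale, from 20.3, 22.0 and 21.5 CPM to 16.2, 15.7 and 13.8 (SE 0.16, adjusted p = 0.0198, and 0.0609 without replicate 3 of hypoxic Col, range 0.000606 to 0.0609).

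CBL3 (AT4G26570, chromosome 4, 13408383 to 13411177, minus strand), the vacuolar sensor, had the smallest p of the sensors and is shown for that. It fell from 26.1, 31.5 and 27.3 CPM to 19.3, 18.1 and 20.4, all below the normoxic libraries (log2 change -0.56, SE 0.09, adjusted p = 2.05e-05). CBL9, a plasma membrane sensor, fell from 9.21, 9.59 and 9.35 CPM to 7.39, 6.65 and 6.51, again without overlap (log2 change -0.45, SE 0.15, adjusted p = 0.0216). That call was lost without replicate 2 or 3 of hypoxic Col (adjusted p 0.0602 and 0.0528, range 0.000917 to 0.0602). The glycine and cysteine codons shown above are present in CBL9 and absent from CBL3, so the sensors that fell included both kinds.

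The nearest relatives of the fallen sensors were not called in Col. CBL2 had a log2 change of 0.23 (95% interval 0.01 to 0.45, adjusted p = 0.0908) and CBL1 one of -0.13 (-0.49 to 0.23). CBL10 was at 0.07 (-0.18 to 0.33), CBL8 at 0.25 (-0.93 to 1.43), CBL4 at -0.49 (-0.99 to 0.02) and CBL6 at -0.76 (-1.58 to 0.06). The intervals of CBL4, CBL6 and CBL8 include falls of a size called in CBL3.

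Of the kinases, 7 tested members were not called in Col. Nearest to no change were CIPK19 (log2 change 0.00, 95% interval -1.21 to 1.22), CIPK13 (0.02, -1.12 to 1.17) and CIPK23 (-0.07, -0.27 to 0.13). CIPK23, the kinase of AKT1 and of the nitrate transporter NRT1.1, was at 57.2, 63.5 and 63.0 CPM under normoxia and 55.8, 54.5 and 65.2 under hypoxia, with overlapping groups and a narrow interval. CIPK13 ranged from 1.39 to 2.73 CPM under normoxia and from 0.660 to 4.19 under hypoxia, and CIPK19 from 0.281 to 0.505 and from 0.102 to 0.734, and their intervals span changes of more than 1 in either direction. CIPK8 (0.08), CIPK24 (0.11), CIPK16 (0.15), a kinase of AKT1, and CIPK6 (-0.13) were the others. CIPK6 spread widely under hypoxia, at 199, 112 and 162 CPM against 176, 161 and 182 under normoxia.

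**Figure D3:**
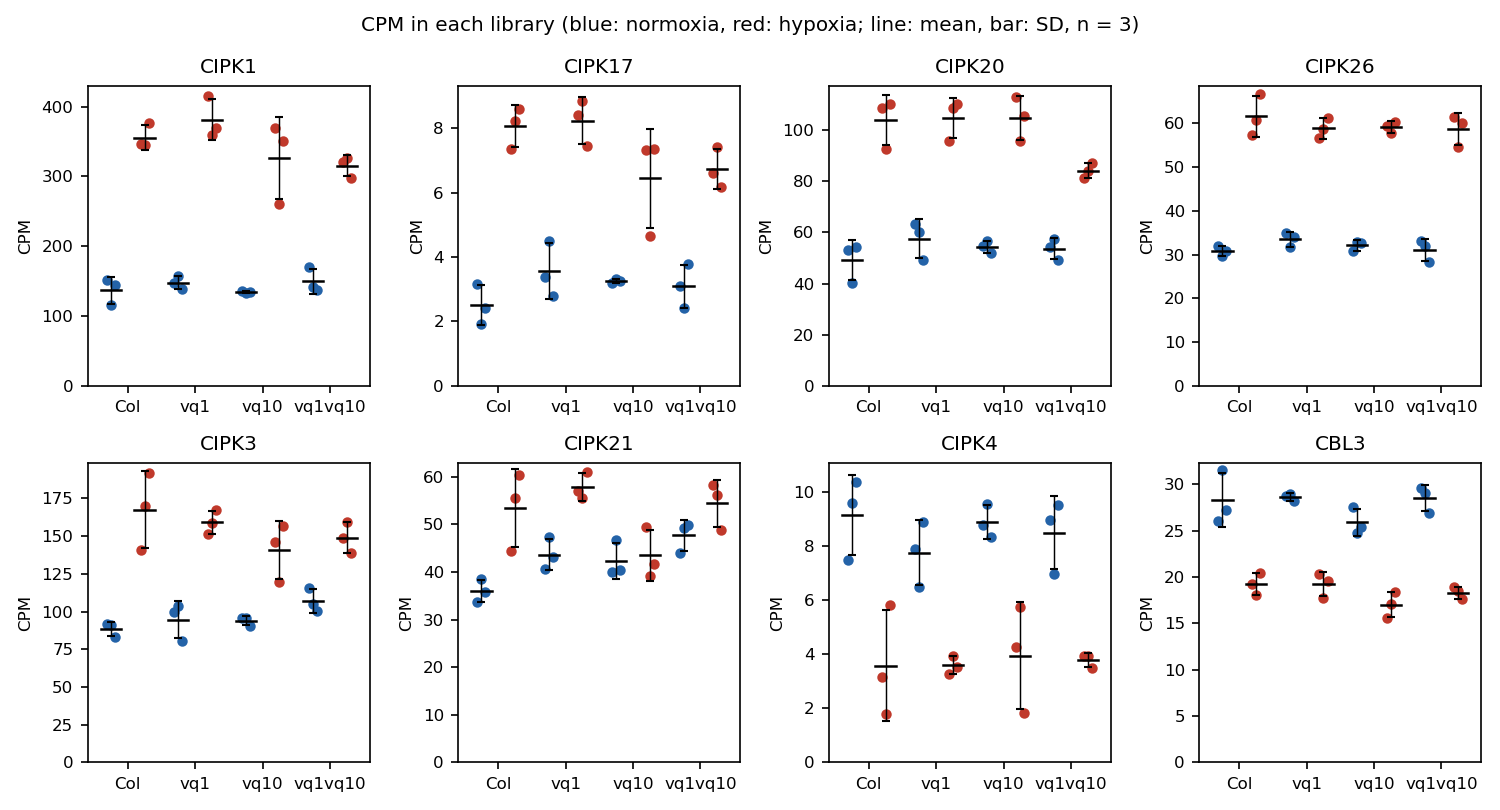
CPM (linear axis from 0) of 8 members in each library by genotype (blue normoxia, red hypoxia; line, mean; bar, SD; n = 3). For CIPK1 all 12 hypoxic libraries lie at 260 to 414 CPM, above the 12 normoxic libraries at 115 to 170, and for CBL3 they all lie below.

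The upward and downward calls recurred in the other genotypes. In vq1 15 members were called higher and 4 lower (19.1% and 16.5% of all genes tested). In vq10 the counts were 12 and 4 (19.5% and 18.2%), and in vq1vq10 they were 13 and 4 (17.7% and 15.7%). With library totals alone they became 8 and 6 in vq1, 8 and 13 in vq10, and 10 and 4 in vq1vq10. The percentages just given are from the TMM fit and are no background for those counts. No CBL gene was called higher in any genotype, and 2 or 3 were called lower in each. The kinase medians were 0.44, 0.38 and 0.33 in vq1, vq10 and vq1vq10 and the sensor medians -0.22, -0.42 and -0.15.

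In all 4 genotypes 11 members were called higher, where 12.1% of all genes tested were: CIPK1, CIPK3, CIPK5, CIPK7, CIPK9, CIPK10, CIPK12, CIPK15, CIPK17, CIPK20 and CIPK26. CIPK4, CBL3 and CBL9 were called lower in all 4, where 8.77% of all genes were. For CBL9 this ends under most settings: in vq10 (adjusted p = 0.0479) its call was lost in 9 of 12 alternatives, RLE scaling, DESeq2 and no low-count filter among them (range 0.00267 to 0.177), and in vq1 in 5 of 12 (range 0.00312 to 0.173). Leaving out replicate 1 or 3 of hypoxic or 2 or 3 of normoxic vq10 (adjusted p 0.177, 0.0892, 0.108 and 0.115), or replicate 2 or 3 of hypoxic or 1 or 2 of normoxic vq1 (0.173, 0.0967, 0.113 and 0.0579), was enough. Another 11 members (CIPK6, CIPK8, CIPK13, CIPK19, CIPK23, CIPK24, CBL2, CBL4, CBL6, CBL8 and CBL10) were called in none of them, although leaving out 1 library brought calls. Without replicate 3 of hypoxic Col, CBL2 was called higher in Col (adjusted p 0.0468, range over its alternatives 0.0468 to 0.932) and CBL4 lower (0.0146, range 0.0146 to 0.431). Without replicate 1 of hypoxic vq10, CIPK23 (0.0342, range 0.00113 to 0.362) and CIPK24 (0.0367, range 0.0236 to 0.551) were called lower in vq10. CIPK23 was so also without replicate 1 of normoxic vq10 (0.0344), and CIPK19 without replicate 3 of normoxic vq10 (0.0289, range 0.0289 to 0.254). No member was called in opposite directions. CIPK1, CIPK3, CIPK7, CIPK17, CIPK20, CIPK26, CIPK4 and CBL3 kept their call in all 4 genotypes under each of the 12 alternatives run for each comparison. Of the others, calls lost on leaving out 1 mutant library were those of CIPK15 in vq1 (replicate 3 hypoxic or 2 normoxic, adjusted p 0.0799 and 0.0812, range 0.00532 to 0.141), CIPK10 in vq10 (replicate 2 hypoxic or 1 normoxic, 0.0779 and 0.0588, range 0.0123 to 0.408), and, in vq1vq10, CIPK5 (replicate 3 hypoxic or 2 normoxic, 0.0586 and 0.0508, range 0.00298 to 0.0586), CIPK10 (replicate 3 hypoxic, 2 or 3 normoxic, up to 0.0852, range 0.0133 to 0.121) and CIPK12 (replicate 2 or 3 hypoxic or any normoxic one, up to 0.144, range 0.00902 to 0.237). CBL9 in vq1vq10 lost its call without replicate 2 of the hypoxic or 3 of the normoxic libraries (0.0631 and 0.0642, range 0.00239 to 0.0642).

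Across genotypes the 12 hypoxic libraries lay wholly above the 12 normoxic ones for 9 members (CIPK1, 3, 5, 7, 9, 10, 17, 20 and 26) and wholly below them for CIPK4 and CBL3, where 10.4% and 7% of all tested genes did so. CIPK17 spanned 1.93 to 4.5 CPM over the normoxic and 4.66 to 8.84 over the hypoxic libraries. CIPK4 spanned 6.48 to 10.4 CPM and 1.78 to 5.83, and CBL3 24.7 to 31.5 and 15.6 to 20.4. No hypoxic library of these 3 genes entered the normoxic range.

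**Figure D4:**
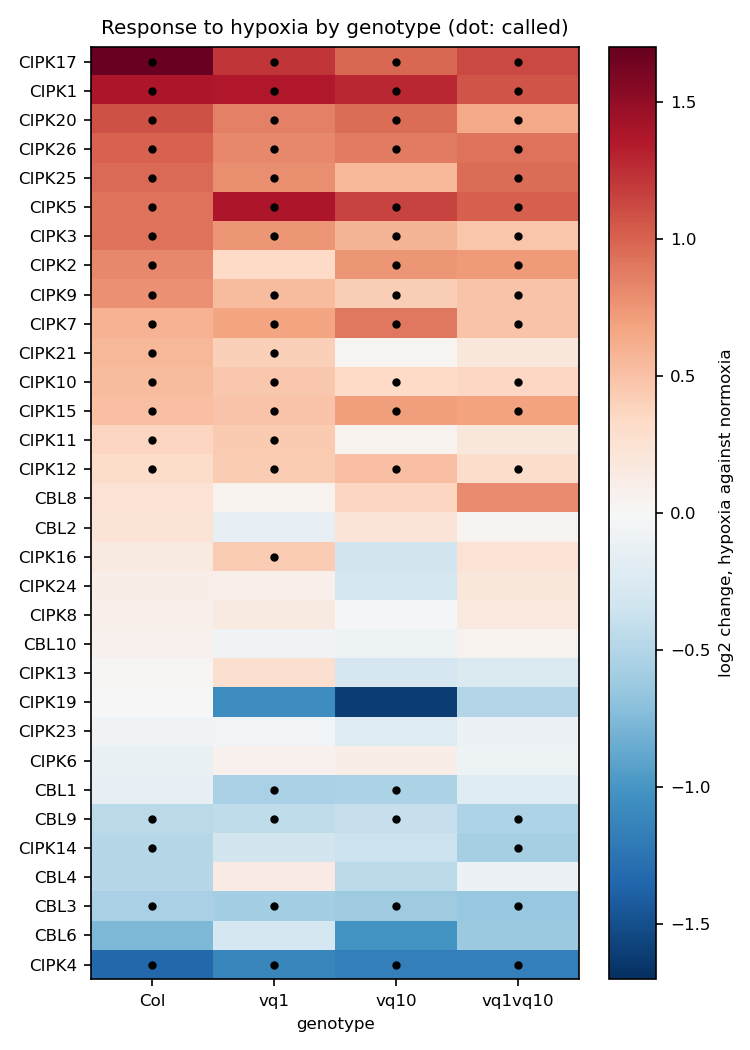
Log2 change between hypoxia and normoxia for the 32 tested members (rows, ordered by the change in Col) in each genotype (columns); red is higher and blue lower under hypoxia, and a dot marks an edgeR adjusted p under 0.05. The 11 rows with 4 dots in red are all CIPK genes, and CIPK4, CBL3 and CBL9 have 4 dots in blue, of which that of CBL9 in vq10 is lost in 9 of 12 alternatives.

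Other calls were made in some genotypes only, which does not show that these differ. CIPK16 was called higher in vq1 alone (log2 change 0.43, adjusted p = 0.0394), a call lost in 6 of 12 alternatives, among them leaving out any hypoxic vq1 library or replicate 2 or 3 of normoxic vq1 (range 0.0232 to 0.242). CBL1 was called lower in vq1 (-0.55, adjusted p = 0.0177) and vq10 (-0.53, adjusted p = 0.0178). In vq1 that call was lost without replicate 3 of hypoxic vq1 (0.0825, range 0.00315 to 0.0825). In vq10 it was lost with the compared libraries alone (0.0799) and without replicate 1 of hypoxic (0.0905) or 3 of normoxic vq10 (0.125, range 0.00185 to 0.125). CIPK2 was called in every genotype but vq1, CIPK25 in every one but vq10, and CIPK11 and CIPK21 in Col and vq1 alone. CIPK25 was also called in vq10 with the compared libraries alone (0.57, adjusted p 0.0281), under the replicate block (0.53, 0.0295) and without replicate 2 of hypoxic vq10 (0.73, 0.0401, range 0.0281 to 0.297). Its call in vq1 was lost without replicate 3 of hypoxic or 2 of normoxic vq1 (0.107 and 0.0817, range 0.00242 to 0.107). CIPK2 lost its call in 4 of 12 alternatives in vq10 (range 0.0117 to 0.0904) and in 5 of 12 in vq1vq10 (range 0.0169 to 0.118), mostly on leaving out 1 library. CIPK14 was called lower in Col and vq1vq10, and in vq1 without replicate 1 of hypoxic vq1 (0.0258, range 0.0131 to 0.525) and in vq10 without replicate 1 of hypoxic or of normoxic vq10 (0.0127 and 0.0299, range 0.00346 to 0.304). CIPK19 was at -1.06 in vq1 and -1.60 in vq10, on 1 to 19 reads a library in those groups, and neither was called (adjusted p = 0.242 and 0.0637).

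Ratios of reads between 2 genes of 1 library do not depend on scaling between libraries. The pairs were chosen after their values were seen and are given with no test. The ratio of CIPK4 to its relative CIPK7 was 0.111 to 0.166 over the 12 normoxic libraries and 0.0141 to 0.0574 over the 12 hypoxic ones. That of CBL3 to CBL2 was 2.18 to 2.7 and 1.32 to 2.1. Both ratios were lower in every hypoxic library than in any normoxic one.

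Against CIPK23, which was not called in Col with TMM and was called lower there with library totals alone, CIPK26 stood at 0.434 to 0.574 under normoxia and 0.887 to 1.30 under hypoxia. CIPK3 stood at 1.32 to 1.80 and 2.37 to 3.12 against the same kinase, and CIPK9 at 0.712 to 0.969 and 1.22 to 1.56. These kinases share with CIPK23 the vacuolar sensors CBL2 and CBL3 as partners, and all 3 ratios were higher in every hypoxic library. The ratio of CIPK17 to CIPK1 overlapped, at 0.0167 to 0.0285 and 0.0180 to 0.0246, and so did that of CBL9 to CBL1, at 2.05 to 3.42 and 1.66 to 3.04. CIPK20, set against CIPK6, was at 0.250 to 0.387 under normoxia and at 0.420 to 0.825 under hypoxia. For the tail-to-tail neighbours CIPK14 and CIPK15 the ratio was 0.422 to 0.578 and 0.155 to 0.444, with a slight overlap.

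**Figure D5:**
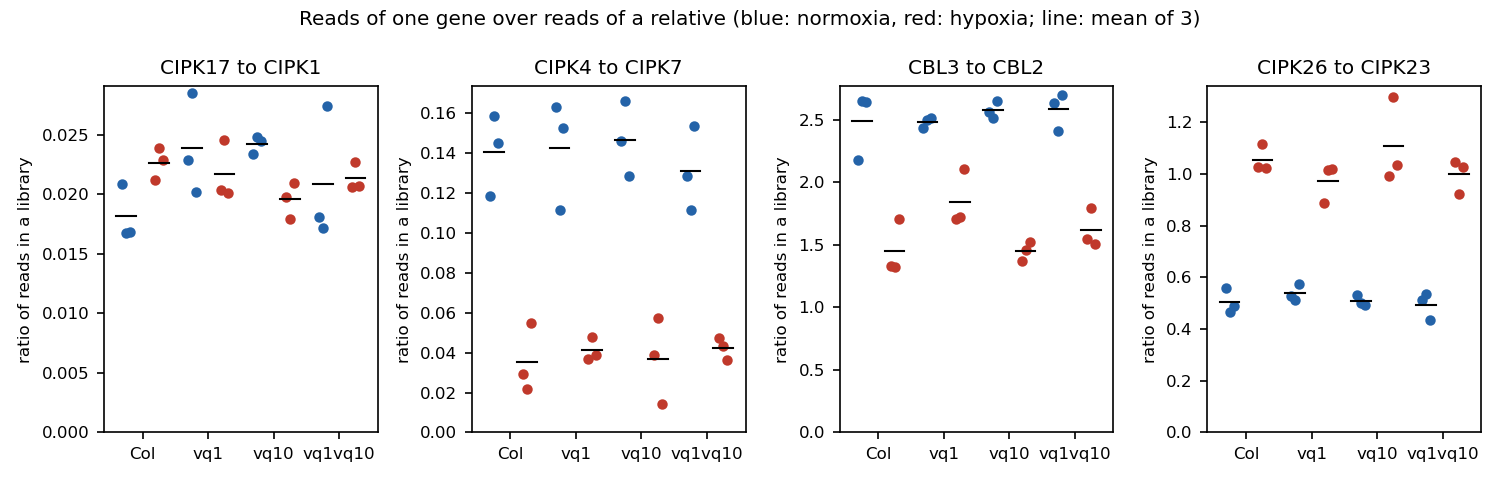
Reads of one gene over reads of another in the same library for 4 pairs, by genotype (blue normoxia, red hypoxia; line, mean of 3). CIPK4 to CIPK7 and CBL3 to CBL2 are lower and CIPK26 to CIPK23 higher in every hypoxic library, while CIPK17 to CIPK1 overlaps between conditions.

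By TPM the order of the sensors closed up under hypoxia. CBL3 made up 37.2% ± 1.61 of the summed CBL transcripts of normoxic Col and 29.4% ± 2.0 under hypoxia, and CBL10 27.4% ± 2.19 and 33.3% ± 3.72. In hypoxic Col CBL10 was at 21.1 to 25.1 TPM and CBL3 at 18.3 to 24.4 TPM, which overlapped, whereas under normoxia CBL3 was at 33.2 to 42.0 TPM and CBL10 at 25.6 to 27.5. The summed CBL transcripts were at 92.4 to 109 TPM under normoxia and 66.9 to 78.0 TPM under hypoxia. The summed CIPK transcripts were at 695 to 731 and 805 to 1121 TPM. These TPM carry no TMM scaling between libraries. In TMM-scaled CPM the Col sums were 73.4 to 82.1 and 65.7 to 66.9 for CBL genes, a smaller fall. For CIPK genes they were 867.5 to 964.7 and 1324 to 1557 CPM. By the edgeR test CBL10 was not called in Col (log2 change 0.07).

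Split by gene structure, 6 of the 9 intron-rich kinases were called higher in Col and none lower, with a median log2 change of 0.77. Of the 15 tested intron-poor kinases 9 were called higher and 2 lower, with a median of 0.37. Of all tested genes, 21.9% were called higher and 19.9% lower in Col. CIPK8, CIPK23 and CIPK24 were the intron-rich kinases not called. The classes were compared after the values were seen, and no difference between them was tested.

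The mutants were checked before they were compared with Col. VQ10 was higher in the libraries labelled vq10 (log2 difference 2.56, adjusted p = 0.00305, under normoxia) and vq1vq10 (2.3, adjusted p = 0.0133). VQ1 was not called different from Col in the libraries labelled vq1 (-0.22, 95% interval -0.77 to 0.32) or vq1vq10 (-0.42, -0.97 to 0.13). The vq1 label is therefore not checked by the transcript of VQ1.

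No CBL or CIPK gene was called different from Col in any mutant. Under normoxia 0 of 32 members were called in vq1, vq10 and vq1vq10 by edgeR and by DESeq2, where 0.0796%, 0.0597% and 0.0646% of all genes tested were called by edgeR in either direction. At an unadjusted p under 0.05 there were 4, 1 and 2 members. Under hypoxia there were again 0 by either tool, where 0.0845%, 0.0646% and 0.0845% of all genes were called, and 2, 3 and 3 members at an unadjusted p under 0.05. The percentages given are of genes called at an adjusted p and are no background for the counts at an unadjusted p. The share of all genes at an unadjusted p is not given, and those counts were not tested against it.

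The test of the response itself, the hypoxia change of a mutant minus that of Col, called 0 members and 0% of all genes for each of vq1, vq10 and vq1vq10. DESeq2 called 0 members too, and 1, 4 and 3 members had an unadjusted p under 0.05. Member medians were -0.02, -0.12 and -0.08, beside 0.00, -0.01 and -0.01 over all genes, and 18, 22 and 22 of the 32 members were below 0. All 3 differences use the same 6 Col libraries. The shares of all genes below 0 and at an unadjusted p under 0.05 are not given here. Neither kind of count was tested against them, so neither is read as a weaker response of the members.

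The 3 members with the smallest unadjusted p for a response were CIPK21, CIPK3 and CIPK20. CIPK21 (AT5G57630, chromosome 5, 23340746 to 23343489, minus strand) was at 33.8, 38.5 and 35.8 CPM in normoxic Col and 44.5, 55.5 and 60.4 in hypoxic Col. In vq10 it was at 39.9, 46.7 and 40.4 CPM under normoxia and 49.5, 39.3 and 41.8 under hypoxia. The conditions were apart in Col and overlapped in vq10. The difference in response was -0.53 (95% interval -0.85 to -0.21, unadjusted p = 0.00218, adjusted p = 0.595).

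CIPK21 also stood above Col in all 3 normoxic mutant groups without passing the test. Its normoxic libraries were at 40.7, 47.3 and 43.1 CPM in vq1 and at 43.9, 49.2 and 49.9 in vq1vq10. The log2 differences from Col were 0.28, 0.23 and 0.40 in vq1, vq10 and vq1vq10 (adjusted p = 0.608, 1 and 0.656), all against the same 3 Col libraries. Under hypoxia it was at 57.0, 55.5 and 61.1 CPM in vq1 and 58.3, 56.2 and 48.9 in vq1vq10, which overlapped Col.

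CIPK3, an intron-rich kinase of abscisic acid and cold responses, was at 91.4, 90.7 and 83.4 CPM in normoxic Col and 141, 170 and 192 in hypoxic Col. In vq1vq10 it was at 116, 105 and 101 CPM and at 149, 159 and 139. The difference in response was -0.44 (95% interval -0.77 to -0.12, unadjusted p = 0.0104, adjusted p = 0.542). In vq1 CIPK3 was at 99.5, 104 and 80.6 CPM and at 151, 159 and 167, and in vq10 at 95.4, 95.8 and 90.7 and at 146, 120 and 157.

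CIPK20 was at 54.4, 57.4 and 49.3 CPM in normoxic and 81.2, 84.2 and 87.3 in hypoxic vq1vq10. Each of these hypoxic libraries was below each hypoxic Col library (log2 difference -0.30, adjusted p = 0.418). The difference in response from Col was -0.43 (95% interval -0.75 to -0.10, unadjusted p = 0.0129, adjusted p = 0.542). In vq1 CIPK20 was at 63.5, 60.4 and 49.1 CPM and at 95.6, 109 and 110, and in vq10 at 54.9, 56.6 and 51.8 and at 113, 95.7 and 106.

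The lists of related genes that follow were compared in Col, where 21.9% of all tested genes were called higher and 19.9% lower. The counts of the 4 lists are small, and no list was tested against that background. Of 10 regulators of the kinases 2 were called higher and 2 lower. The phosphatase HAI2 had 0.201 to 0.463 CPM under normoxia and 0.152 to 4.04 under hypoxia, overlapping groups with an adjusted p of 0.0202. GRF6, a 14-3-3 protein, rose by 0.28, while GRF8, another, fell by 0.30 on the log2 scale. GRIK2, an activating kinase upstream of CIPK24, fell by 0.55.

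Of 14 transport proteins that the pathway acts on, 2 were called higher and 2 lower. AKT2, a potassium channel, went from 12.8 to 17.3 CPM over the normoxic to 32.2 to 41.7 over the hypoxic libraries (log2 change 1.32), and the ammonium transporter AMT1;2 changed by 0.57. AHA2 fell by 0.93 and the anion channel SLAH3 by 0.76 on the log2 scale. The well-known targets SOS1 (0.01), AKT1 (0.18) and NRT1.1 (-0.43), named after their values were seen, were not called.

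Of 12 SnRK1 and SnRK2 kinases 3 were called higher and 1 lower. SNRK2.6 (OST1), the abscisic acid kinase of guard cells, went from 11.1 to 14.2 CPM to 49.0 to 60.5 CPM (log2 change 2.13), SNRK2.8 changed by 0.88, SNRK2.5 by 0.48 and SNRK2.7 by -1.18. Of 25 tested calcium-dependent kinases (CPK), which carry their own EF hands, 5 were called higher and 9 lower, with a median of -0.07. CPK15 changed by 0.71, CPK2 by -0.98 and CPK33 by -0.59, and CPK19 was at 0.294 to 0.421 CPM under normoxia and 0 to 0.0911 under hypoxia.

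Markers of tissues moved with the condition. In Col 6 of 8 leaf mesophyll markers were called higher and none lower, among them GLDP1 (log2 change 1.81) and RCA (1.28), and the list summed to 43830 to 49220 CPM under normoxia and 64040 to 80300 under hypoxia. Of 10 root and root hair markers 5 were called lower and none higher, among them EXPA7 (-3.84), EXPA18 (-2.94), COBL9 (-2.44) and RSL4 (-1.71), and the sum went from 92.6 to 99.1 CPM to 72.3 to 79.0. Of 5 guard cell markers GC1 was higher (1.44), KAT1 lower (-0.72) and 3 not called, with sums of 69.3 to 89.5 and 87.3 to 108 CPM. The part of these shifts in the CIPK and CBL values was not tested.

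As a check of the treatment, ADH1, PDC1, HRA1 and LBD41, genes induced by low oxygen, were higher in hypoxic Col by log2 changes of 5.73, 5.76, 5.28 and 4.74. The same 4 genes were called in each of the other genotypes.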

How the data were processed

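Total RNA of whole seedlings was sequenced in 24 libraries. Per the file headers, the authors deposited an estimated count of reads for each gene in each library, not normalized. They also deposited TPM and FPKM values, scaled by the authors to gene length and library; FPKM was not used here. Per the submitters' processing notes, HISAT2 2.0.4, DESeq2 and the build TAIR10 were used. For the read counter, its use of strand and its treatment of shared reads, details were not given in the sources used here.

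Estimated counts (525 to 581 values per library were not whole) were rounded. Replicates differed by more than sampling noise (chi-square per degree of freedom of at least 5.97), so none was counted as a copy. Genes were filtered by filterByExpr, which kept 20110 of 23929, scaled by TMM and tested in one fit of 8 groups by edgeR's quasi-likelihood test (edgeR 4.0.16, R 4.3.3) with Benjamini-Hochberg adjustment over all tested genes; a call is an adjusted p under 0.05. The script was tested on simulated data. CPM are rounded counts over TMM-scaled library sizes. Standard errors were derived from the F statistic, and intervals are 95%. A count of 3 reads over a group corresponded to about 0.0452 CPM. Sequences, gene models and coordinates came from the TAIR10.1 genome and its RefSeq annotation.

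The members and all gene lists were chosen with earlier results of these data known. Values per library were given for members called in Col with an absolute log2 change of at least 1, the 3 smallest called changes, the 3 nearest to no change and the 3 smallest unadjusted p in the response differences; up to 4 called genes were named from each other list. CIPK26, CBL3, the remaining members with values per library and the read-ratio pairs were added after their values were seen. Alternatives were RLE scaling, no low-count filter, DESeq2 1.42.0, the compared libraries alone, the replicate block, leaving out each library and, added later, library totals only.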

Additional observations from a re-analysis of the deposited data

How the results depend on the processing

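No called result reversed under any of the 12 alternatives run for each hypoxia comparison. Changes that were not called could turn sign. With library totals only, that of CIPK21 in vq10 went from 0.04 to -0.19 and that of CBL2 in Col from 0.23 to -0.01. Of 71 called member results in the 4 hypoxia comparisons, 43 were kept under all alternatives and 28 were lost under at least 1; in Col 11 of 19 were kept. With library totals only, the median of all tested genes moved to -0.25, -0.20, -0.24 and -0.12 in Col, vq1, vq10 and vq1vq10, and the members called lower numbered 7 in Col and 13 in vq10, those called higher 8 in vq1. With the compared libraries alone, 2 members were called lower in vq10. Without replicate 3 of hypoxic vq1, 2 were called lower in vq1. The cause was not tested.

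Leaving out 1 library gave 12 to 15 members higher and 3 to 4 lower in Col, 12 to 15 and 2 to 5 in vq1, 10 to 12 and 3 to 6 in vq10, and 9 to 12 and 3 to 4 in vq1vq10. The counts for the mutants against Col and for the response differences were 0 throughout. With the replicate block they were 15 and 4 in Col, 15 and 4 in vq1, 13 and 3 in vq10, and 13 and 4 in vq1vq10. The block lost CBL9 (adjusted p 0.0507) and gained CIPK25 (0.0295) in vq10 and changed no other member's call. Same-numbered libraries of the same condition in different genotypes deviated together in part: 20 of 36 pairs had a correlation of deviations above 0.1 (median 0.12, range -0.10 to 0.38). Of the 12 pairs of normoxic and hypoxic libraries of a genotype 0 did (median -0.09). The replicate block fits the same effect for a replicate number in both conditions. It therefore cannot take up deviations shared only within a condition, and calls kept under it do not show that these are harmless. In no comparison made here was every pair above 0.1, so the replicate numbers were not used as a pairing. Between mutants, which were not compared here, every pair was above 0.1 for vq10 with vq1vq10 in both conditions. The same held for vq1 with vq1vq10 under hypoxia. Calls that recurred over genotypes, and the 12 libraries of a condition, may therefore not be independent repeats. DESeq2 called 15 and 4, 15 and 4, 12 and 3, and 13 and 4. Member counts under the alternatives were not set beside the share of all genes called under the same setting. CBL9 in vq10 lost its call in 9 of 12 alternatives (highest adjusted p 0.177) and CIPK16 in vq1 in 6 of 12 (0.242). Intervals were wide for CIPK19, CBL6 and CBL8, which had few reads, and for CIPK13, which spanned 0.501 to 3.99 CPM over the normoxic and 0.660 to 6.09 over the hypoxic libraries; depth left 4 members untested.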
